A study of Homo sapiens with 15 samples.

Results

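The expression of 10 genes is described. These genes are commonly read as markers of the epithelial or the mesenchymal state of a cell and are CDH1, EPCAM, ESRP1, CDH2, VIM, FN1, ZEB1, SNAI1, SNAI2 and TWIST1. They were taken by name, and all 10 were found among the 58219 genes of the count table and passed the filter on low counts. RNA-Seq had been performed on BEAS-2B cells, an immortalized line of human bronchial epithelial cells, grown in serum-free bronchial epithelial growth medium on collagen-coated plates. Each of the 5 conditions had 3 libraries, one from each of 3 independent experiments. In the single-exposure protocol, cells received vehicle control, 1 µg/cm2 or 30 µg/cm2 of PM2.5, fine particulate matter extracted from filters of urban air, and were lysed after 24 h. In the repeated protocol, cells were given medium alone or PM2.5 at 1 µg/cm2 daily, with a wash between doses, and were lysed at 7 d, and they had been plated at a lower density than the cells of the 24-h protocol. All libraries came from this 1 cell line, which is a limit of the model.

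An epithelial cell is held to its neighbours by adherens junctions, tight junctions and desmosomes. In the epithelial-mesenchymal transition, cells lose these contacts, reorganize their cytoskeleton, deposit matrix and become able to migrate, as occurs in wound repair and is studied in airway remodelling. E-cadherin (CDH1) and EPCAM are adhesion molecules of the epithelial state, and ESRP1 is an RNA-binding protein that sets the splicing pattern of epithelial cells. N-cadherin (CDH2), the intermediate filament vimentin (VIM) and the matrix glycoprotein fibronectin (FN1) mark the mesenchymal state. ZEB1, SNAI1 and SNAI2 are zinc-finger repressors that bind E-boxes in the CDH1 promoter, and TWIST1 is a basic helix-loop-helix factor of the same program. Many cells hold both kinds of marker at once, so the genes are described one by one and not as a score.

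Promoter sequences in RefSeq (GRCh38.p14), from 250 bases before to 50 bases after a transcription start, were found for 4 of the 10 genes, CDH2, VIM, FN1 and ZEB1. RefSeq gave 2 starts for CDH2 and 7 for ZEB1, and a promoter below is that of the start nearest to the gene's 5′ end in the count table unless another is named. Those of FN1 and CDH2, the pair with the largest falls between the controls of the 24-h and the repeated protocol, are shown, 5′ to 3′ on the strand of the gene, with motif matches in capitals. The motifs searched on both strands were the E-box CACCTG, AP-1 as TGANTCA, the cAMP response element TGACGTCA and GCGTG, the core of the element bound by the aryl hydrocarbon receptor.
FN1, chr2:215436019-215436318, minus strand: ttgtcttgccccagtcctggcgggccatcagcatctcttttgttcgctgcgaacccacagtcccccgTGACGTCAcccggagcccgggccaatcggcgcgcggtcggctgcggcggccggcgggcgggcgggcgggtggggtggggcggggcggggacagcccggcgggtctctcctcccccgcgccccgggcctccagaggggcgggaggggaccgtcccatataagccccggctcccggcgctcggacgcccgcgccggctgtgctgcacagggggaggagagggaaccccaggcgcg
CDH2, chr18:28177081-28177380, minus strand: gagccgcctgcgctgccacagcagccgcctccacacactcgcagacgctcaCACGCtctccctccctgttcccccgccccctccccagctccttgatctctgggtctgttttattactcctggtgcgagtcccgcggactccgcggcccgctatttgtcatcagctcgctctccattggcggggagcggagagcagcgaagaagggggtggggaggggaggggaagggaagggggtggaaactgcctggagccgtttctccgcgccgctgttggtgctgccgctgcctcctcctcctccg
The FN1 promoter held the cAMP response element 183 bases before the start, which 1.85% of 35116 promoters held. The CDH2 promoter held GCGTG, on the opposite strand, 199 bases before the start, which 36.5% of promoters held. The E-box was found in the ZEB1 promoter, 57 bases before the start, and in 20.6% of all promoters. AP-1 was found at none of the 4 nearest starts and in 7.71% of all promoters. Among the farther starts, the second of CDH2 held AP-1 102 bases before it, the third of ZEB1 held 3 E-boxes, and the second and the fifth of ZEB1 held GCGTG. These matches are letters in a window and no binding was measured.

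In GRCh38, CDH1 (ENSG00000039068) lies on the plus strand at chr16:68737225-68835548 and EPCAM (ENSG00000119888) on the plus strand at chr2:47345158-47387601. CDH2 (ENSG00000170558) is on the minus strand at chr18:27950966-28177446, FN1 (ENSG00000115414) on the minus strand at chr2:215360440-215436172 and VIM (ENSG00000026025) on the plus strand at chr10:17228259-17237593. ZEB1 (ENSG00000148516) is on the plus strand at chr10:31318495-31529814, SNAI1 (ENSG00000124216) on the plus strand at chr20:49982999-49988886 and TWIST1 (ENSG00000122691) on the minus strand at chr7:19020991-19117672. SNAI2 (ENSG00000019549) and ESRP1 (ENSG00000104413) both lie on chromosome 8, at chr8:48917768-48921740 on the minus strand and chr8:94641074-94707466 on the plus strand. Counts were taken over the exons of each protein-coding gene. ZEB1 shared 366 exonic bases with ZEB1-AS1 on the other strand, which held 4318 counts over the 15 libraries against 14156 for ZEB1, and since the strand setting of the counting was not stated, the values of ZEB1 are uncertain. VIM shared 641 exonic bases with VIM-AS1, which held 657 counts against 144354.

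Between 21460981 and 34724765 reads were counted per library, with a median of 29243177, and the 3 counts taken as the floor equal 0.0866 to 0.149 CPM (counts per 1000000 counted reads, scaled by edgeR's TMM), which covers counting error only. All 10 genes were above the floor in every library, the lowest value being 26 counts for SNAI1. All 10 listed markers of airway basal epithelium were detected in every condition, with a summed level of 1914 to 2057 CPM in the 24-h controls. All 8 listed fibroblast markers were also above the floor, with a summed level of 162 to 223 CPM in the 24-h controls. Of 5 listed secretory markers, 1 exceeded the floor in a 24-h control library and 2 in a library after 30 µg/cm2. SCGB1A1 and SCGB3A1 of this list had no count in any library. In the 24-h controls, 1 of 6 immune, 3 of 5 endothelial and 2 of 4 matched ciliated markers exceeded the floor in at least 1 library. The last number of a sample name marks the experiment, and the 3 libraries of 24-h experiment 2 stood apart from those of 24-h experiments 1 and 3 in several of the genes, with less FN1 and more VIM in each of the 3 conditions. The share of counts from mitochondrial genes was 4.13 to 4.40% in experiment 2 and 2.76 to 3.42% in the other 24-h libraries. It was 2.73 to 2.90% in the 7-d controls, below the range of 3.0 to 4.40% in the 24-h controls, and 2.37 to 2.70% after daily exposure, below the 7-d controls. The part of this share in the results was not tested. Main results of the 24-h protocol are also given without experiment 2.

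Per kilobase of exon, the 24-h controls contained the most VIM (103 ± 25.5 CPM per kb, mean ± SD, n = 3) and FN1 (102 ± 43.0), whose spreads overlap. EPCAM at 14.3 ± 1.49 and CDH1 at 13.1 ± 1.03 CPM per kb came next and did not differ from each other beyond their spread. SNAI2 followed at 8.83 ± 2.59, TWIST1 at 7.11 ± 0.818 and ESRP1 at 6.05 ± 1.15 CPM per kb, neighbours that also overlap. ZEB1 stood at 3.26 ± 0.569, and CDH2 at 1.28 ± 0.387 and SNAI1 at 0.990 ± 0.263 CPM per kb were lowest. The control cells thus held transcripts of both the epithelial and the mesenchymal markers. In the controls of the repeated protocol, VIM (45.4 ± 2.16 CPM per kb) and FN1 (37.9 ± 1.66) were still first, CDH1 (33.6 ± 1.84), EPCAM (32.1 ± 2.10) and ESRP1 (22.3 ± 0.817) followed, and CDH2 (0.298 ± 0.0738) was last.

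**Figure D1:**
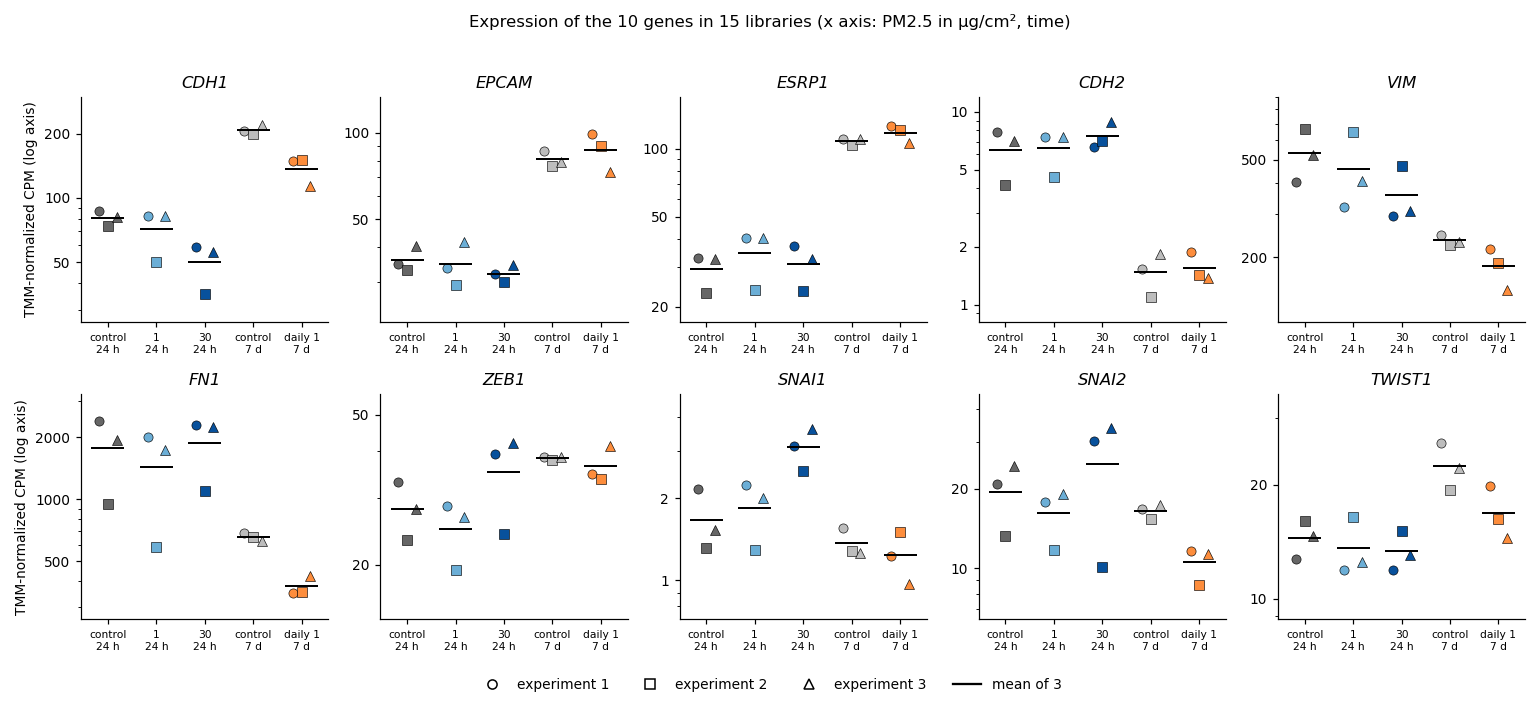
TMM-normalized CPM of each of the 10 genes (log axis, a separate range in each panel) in the 15 libraries, grouped by condition, with the experiment as the marker shape and the mean of 3 as a bar. CDH1, EPCAM and ESRP1 are higher and CDH2, VIM and FN1 lower in both conditions of the repeated protocol, and the squares of 24-h experiment 2 lie apart for FN1 and VIM.

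The largest differences in the set were between the vehicle controls of the protocols. This comparison holds no PM2.5, and it asks how far the cells' baseline differed between 24 h and 7 d. A gene was called when edgeR's quasi-likelihood test gave it a p-value under 0.05 after Benjamini-Hochberg adjustment and its log2 fold-change reached 0.6 in either direction. By this rule 7 of 10 genes changed, 4 higher and 3 lower at 7 d, whereas 21.9% of all 17599 tested genes were called, 11.1% higher and 10.8% lower. The median absolute log2 fold-change was 1.18 for the 10 genes and 0.43 for all genes tested. Plating density, time in culture and daily washing and change of medium differ together between these controls and cannot be told apart.

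Among the epithelial genes, ESRP1 had 32.9, 23.0 and 32.6 CPM in the 24-h controls of experiments 1 to 3 and 111, 104 and 111 CPM in the 7-d controls. The lowest 7-d library was thus far above the highest 24-h library, and ESRP1 rose 3.68-fold (log2 fold-change 1.88 ± 0.22, SE, adjusted p = 5.1e-05). CDH1 was at 86.9, 74.3 and 81.6 CPM at 24 h and at 205, 198 and 220 CPM at 7 d. Its groups did not overlap either, and CDH1 rose 2.57-fold (log2 fold-change 1.36 ± 0.21, adjusted p = 0.00042). EPCAM went from 34.8, 33.1 and 40.2 CPM to 86.8, 76.6 and 79.2 CPM, a 2.24-fold rise (log2 fold-change 1.17 ± 0.15, adjusted p = 0.00011). All 3 epithelial genes of the set were therefore higher in every 7-d control than in any 24-h control.

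CDH2 was the gene that fell most, from 7.83, 4.19 and 7.05 CPM in the 24-h controls to 1.52, 1.09 and 1.82 CPM in the 7-d controls. The groups were separate, with a 4.31-fold fall (log2 fold-change -2.11 ± 0.29, adjusted p = 0.00018). FN1 had 2409, 952 and 1946 CPM at 24 h, with experiment 2 far below the others, and 685, 657 and 628 CPM at 7 d. Fibronectin transcripts were 2.69-fold lower at 7 d (log2 fold-change -1.43 ± 0.41, adjusted p = 0.019), and without 24-h experiment 2 the log2 fold-change was -1.75. VIM fell from 406, 668 and 523 CPM to 246, 225 and 231 CPM, which is 2.27-fold lower (log2 fold-change -1.18 ± 0.26, adjusted p = 0.0046). For FN1 and VIM too, every 7-d control lay below every 24-h control, although experiment 2 was the lowest 24-h control for FN1 and the highest for VIM.

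The transcription factors did not move as a group. TWIST1 had 12.7, 16.0 and 14.7 CPM in the 24-h controls and 25.7, 19.3 and 22.2 CPM in the 7-d controls, and it rose 1.55-fold (log2 fold-change 0.63 ± 0.18, adjusted p = 0.015), in the same direction as the epithelial genes. ZEB1 was at 33.1, 23.3 and 28.1 CPM and then at 38.6, 37.9 and 38.6 CPM, and although these groups did not overlap, it did not pass the test (log2 fold-change 0.44, 95% confidence interval 0.042 to 0.84, adjusted p = 0.12). SNAI1, which had 2.17, 1.32 and 1.52 CPM at 24 h, had 1.56, 1.29 and 1.25 CPM at 7 d (log2 fold-change -0.30, interval -0.84 to 0.24). SNAI2 had 20.8, 13.2 and 24.3 CPM and then 16.8, 15.3 and 17.4 CPM (log2 fold-change -0.24, interval -0.93 to 0.45). The groups overlapped for SNAI1 and SNAI2, and their intervals include changes of more than 1.5-fold downward. In all, 8 of 10 genes had groups that did not overlap, 5 higher and 3 lower, against 52.3% of all genes.

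The calls of ESRP1, CDH1, EPCAM, CDH2 and VIM held when any 1 library was left out, and all 7 held without 24-h experiment 2. The call of FN1 was lost without 24-h control 1 or 3 or any 1 of the 7-d controls (adjusted p = 0.054 to 0.069), and that of TWIST1 without 24-h control 1 or 3 or 7-d control 1 (adjusted p = 0.061 to 0.083). The sample numbers of the libraries fall into 2 runs, each with controls of both protocols. The groups of all 7 called genes did not overlap over all controls. They therefore separate within each run of necessity, so the runs give no further test. The summed level of the basal epithelial markers was 2354 to 2838 CPM in the 7-d controls and 1914 to 2057 CPM in the 24-h controls, with 3 of 10 higher and 1 lower by the same rule. The summed level of the 8 fibroblast markers, all of which are in the mesenchymal list as well, was 99.2 to 143 CPM against 162 to 223 CPM, with 1 lower. The part of cell composition in these differences was not tested, and in bulk RNA a smaller share of cells of a type and less RNA per cell cannot be told apart.

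**Figure D2:**
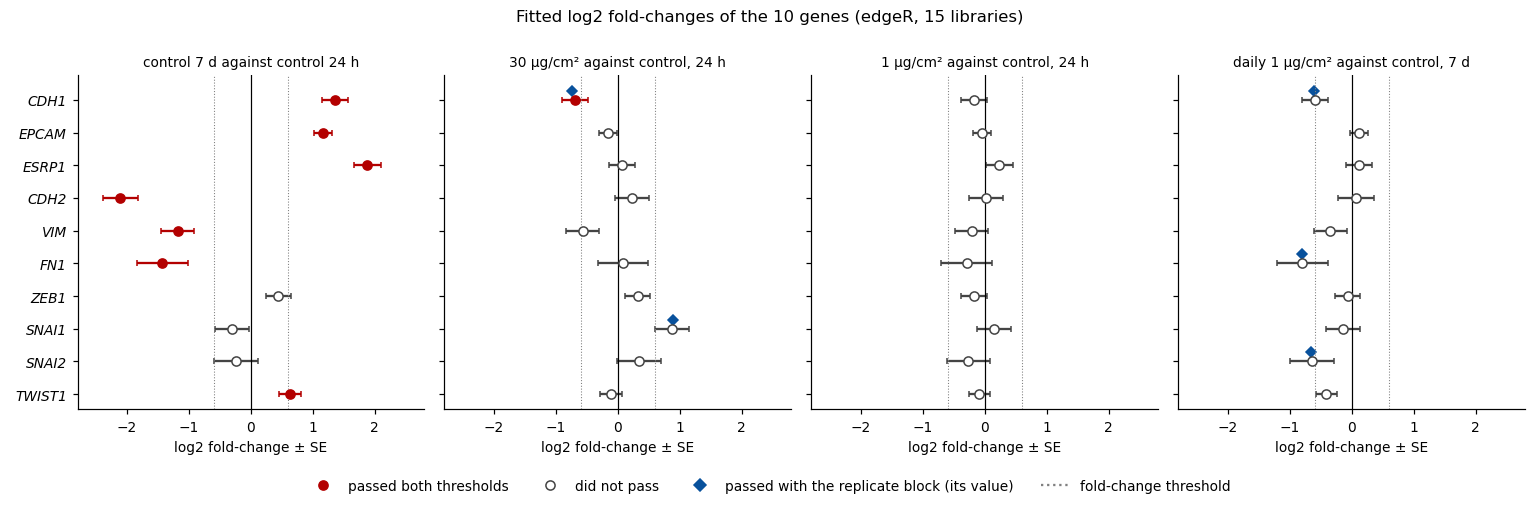
Fitted log2 fold-change with its SE (x axis) of the 10 genes (y axis) in 4 comparisons, filled in red where the gene passed both thresholds, with a blue diamond at the value from the fit with the replicate block where the gene passed in that fit. Red points fill most of the first panel, CDH1 is the only red point after 30 µg/cm2, and no point is red after 1 µg/cm2 in either protocol.

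Other genes of the epithelial program moved with CDH1, EPCAM and ESRP1. Of 33 further genes on a list of epithelial junction proteins, proteases and transcription factors, 18 rose and 2 fell between the 24-h and the 7-d controls, and the remaining 13 did not pass, with a median log2 fold-change of 0.93 against 0.02 for all genes tested. OVOL1, a repressor of mesenchymal genes in epithelia, rose from 0.281 ± 0.0847 to 3.23 ± 1.06 CPM (log2 fold-change 3.48 ± 0.36, adjusted p = 2.3e-05). The epithelial transcription factor ELF3 rose by 2.83 on the log2 scale, from 7.85 ± 5.97 to 55.2 ± 4.71 CPM. The tight junction protein TJP3 rose by 2.73, from 1.07 ± 0.798 to 6.89 ± 0.476 CPM. The epithelial genes that fell, which were looked up after their values were seen, were the desmosomal plakophilin PKP2 (log2 fold-change -1.13) and CTNNB1, the β-catenin gene (-0.64).

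The list of mesenchymal genes did not mirror this. Of 31 tested genes beside CDH2, VIM and FN1, 8 fell and 2 rose, while the median log2 fold-change was -0.03. THY1, a surface glycoprotein of fibroblasts, fell by 2.24 on the log2 scale, from 80.5 ± 12.8 to 17.1 ± 0.175 CPM. The ectonucleotidase gene NT5E fell by 1.83, from 62.7 ± 35.5 to 17.6 ± 1.49 CPM. The mesenchymal genes that rose, looked up after their values were seen, were the matrix protein tenascin C, TNC (log2 fold-change 1.07), and smooth muscle actin, ACTA2 (0.84).

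Of 14 tested transcription factors of the transition other than the 4 in the set, 3 fell, among them SOX9 (log2 fold-change -1.54) and FOXC2 (-1.28), and FOXC1 (0.73) rose. Among 10 splicing regulators, HNRNPM fell from 501 ± 95.2 to 201 ± 4.69 CPM (log2 fold-change -1.32 ± 0.14, adjusted p = 3.0e-05). SRSF1 fell by 0.95, whereas RBM47, an RNA-binding protein of epithelia, rose by 0.74. Of 24 genes of the TGF-beta pathway, a major inducer of the transition, 5 fell and 2 rose. THBS1, a matrix protein that can release latent TGF-beta, fell from 585 ± 429 to 45.6 ± 1.56 CPM (log2 fold-change -3.68 ± 0.70, adjusted p = 0.0017). The ligand BMP4 fell by 2.0 on the log2 scale, from 22.0 ± 2.79 to 5.50 ± 0.587 CPM. BMP7, a ligand that opposes TGF-beta in several epithelia, rose from 0.119 CPM, within the range of the floor, to 2.37 ± 0.916 CPM. The other called genes were PMEPA1 (-1.96), TGFB2 (-1.79) and TGFB1 (-0.88), which fell, and the inhibitory SMAD7 (0.81), which rose. Gene lists were described by these counts alone, and each should be read against the 21.9% of all genes that were called.

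**Figure D3:**
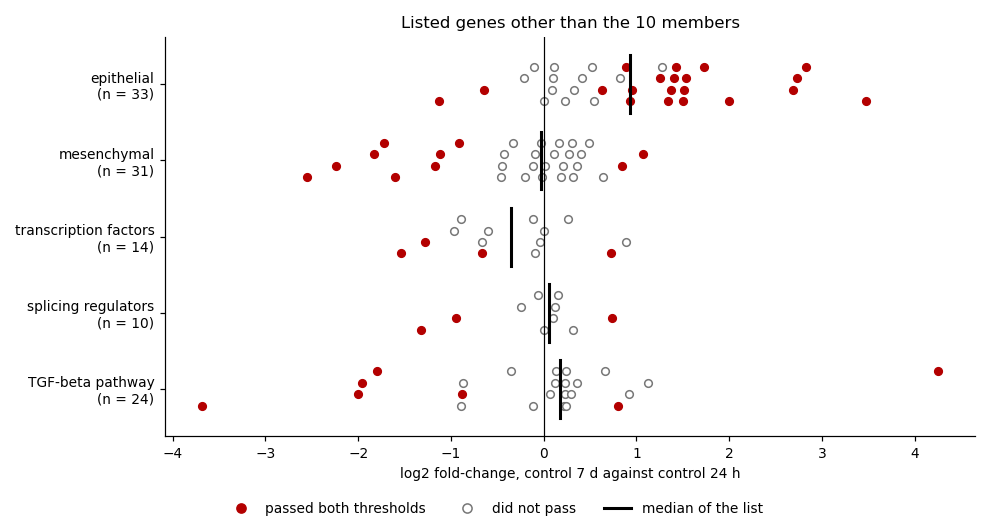
Log2 fold-change between the 7-d and the 24-h controls (x axis) of every tested gene on the 5 lists (y axis, number of genes in brackets), without the 10 genes of the set, in red where both thresholds were passed and with the median of each list as a bar. The epithelial list is shifted to the right, with a median of 0.93, and the other lists have called genes on both sides of 0.

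The high concentration of PM2.5, 30 µg/cm2, was compared with its vehicle control at 24 h. In this comparison 1 of 10 genes was called, against 8.07% of all genes, and the median absolute log2 fold-change of the set was 0.27 against 0.29 for all genes. CDH1 fell from 86.9, 74.3 and 81.6 CPM in the controls of experiments 1 to 3 to 58.8, 35.3 and 55.5 CPM. Every exposed library lay below every control, and the fall was 1.62-fold (log2 fold-change -0.70 ± 0.21, adjusted p = 0.049). This call was at the edge of its threshold. It was lost when any 1 of the 6 libraries was left out (adjusted p = 0.058 to 0.12), and without 24-h experiment 2 the log2 fold-change was -0.57, under the threshold of 0.6, with an adjusted p of 0.00088.

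SNAI1 differed in the opposite direction but did not pass. It had 2.17, 1.32 and 1.52 CPM in the controls and 3.12, 2.53 and 3.59 CPM after 30 µg/cm2, so that the groups did not overlap (log2 fold-change 0.87 ± 0.27, adjusted p = 0.059). With DESeq2 SNAI1 passed at an adjusted p of 0.023, and without 24-h experiment 2 it passed at 0.016. It also passed without 24-h control 1 (log2 fold-change 1.09) and without the exposed library of experiment 2 (0.99). By edgeR it did not pass under RLE scaling (adjusted p = 0.062), with no filter (0.16) or in the fit of the compared groups alone (0.20). Nor did it pass without 24-h control 2 or 3 or the exposed library of experiment 1 or 3 (adjusted p = 0.16 to 0.22). Treated and control cells of 1 number had been handled in the same experiment, so a second fit held the number of the experiment as a replicate block. With this block 2 of 10 genes were called, against 15.2% of all genes, namely CDH1 (log2 fold-change -0.73 ± 0.13, adjusted p = 0.0011) and SNAI1 (0.89 ± 0.21, adjusted p = 0.0068). CDH1 and SNAI1 were also the only genes of the set whose groups did not overlap, while 22.8% of all genes had groups that did not.

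VIM was lower in each experiment, at 294, 471 and 310 CPM after exposure against 406, 668 and 523 CPM, yet the groups overlapped. Its log2 fold-change of -0.57 ± 0.26 did not pass (adjusted p = 0.20), and with the block the adjusted p was 0.0019 while the change stayed under the fold threshold. Without 24-h experiment 2, VIM passed with a log2 fold-change of -0.64. The direction of VIM was thus that of CDH1 in 3 of 3 experiments.

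FN1 was spread widely, from 1095 to 2301 CPM after exposure and from 952 to 2409 CPM in the controls, and its log2 fold-change of 0.09 (95% confidence interval -0.71 to 0.88) leaves a change in either direction possible. CDH2 had 6.57, 7.04 and 8.86 CPM after exposure (log2 fold-change 0.23, interval -0.30 to 0.76). SNAI2 had 30.3, 10.1 and 33.8 CPM, above its control in experiments 1 and 3 and below it in experiment 2 (log2 fold-change 0.34, interval -0.35 to 1.03). ZEB1 had 39.4, 24.2 and 42.1 CPM, above its control in 3 of 3 experiments (log2 fold-change 0.32, interval -0.081 to 0.72). With the block ZEB1 had an adjusted p of 0.046 but a log2 fold-change of 0.30, under the fold threshold.

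The other epithelial genes did not pass in this comparison. EPCAM had 32.1, 30.0 and 34.5 CPM after exposure, with a control range of 33.1 to 40.2 CPM that holds the last of these (log2 fold-change -0.16, interval -0.45 to 0.13). Within each experiment EPCAM was below its control, as CDH1 was, with log2 ratios of -0.22 to -0.12. ESRP1 had 37.0, 23.5 and 32.4 CPM against 32.9, 23.0 and 32.6 CPM (log2 fold-change 0.07, interval -0.35 to 0.48), and TWIST1 had 11.9, 15.1 and 13.1 CPM (-0.11, interval -0.46 to 0.23). The ratio of CDH1 to EPCAM per length was 0.827 to 1.02 in the 24-h controls and 0.480 to 0.747 after 30 µg/cm2. This ratio was chosen after the values were seen and is a description.

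Around the set, 5 of 33 epithelial genes were called after 30 µg/cm2, against 8.07% of all genes. Of these, OVOL1 rose from 0.281 ± 0.0847 CPM, near the floor of at most 0.149 CPM, to 0.921 ± 0.228 CPM (log2 fold-change 1.66 ± 0.37, adjusted p = 0.012). PKP2 fell from 120 ± 38.1 to 45.7 ± 3.52 CPM (-1.40 ± 0.26, adjusted p = 0.0040), and OVOL2, a factor of the same family as OVOL1, fell by 0.88. The plakophilin PKP3 and the plakoglobin gene JUP, looked up after their values were seen, fell by 0.69 and 0.65. Of 31 mesenchymal genes 3 rose and 5 fell. TIMP1, an inhibitor of matrix metalloproteinases, rose by 1.42 on the log2 scale, whereas PDGFRB, a growth factor receptor of mesenchymal cells, fell by 1.60. Also called, and looked up after their values were seen, were ACTA2 (1.23), which rose, and SPARC (-1.22), FBN1 (-0.85), THY1 (-0.80) and FSTL1 (-0.78), which fell. This comparison shares the 24-h control libraries with that between the protocols. Over the 5 lists 24 genes were called, against 7 in the fit of the compared groups alone, 15 without the 30 µg/cm2 library of experiment 1 and 41 without 24-h experiment 2.

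Of the 14 transcription factors, LEF1, a partner of β-catenin, rose by 1.75, from 0.306 ± 0.146 CPM, near the floor, to 1.08 ± 0.416 CPM. RUNX2 rose by 1.39, and TCF4 fell by 0.85. Of the splicing regulators, RBM47 (log2 fold-change -1.01 ± 0.16, adjusted p = 0.0012) and MBNL2 (-0.78 ± 0.11, adjusted p = 0.00073) fell and none rose. In the TGF-beta pathway 5 genes fell and 1 rose. The type III receptor TGFBR3 fell from 60.4 ± 20.4 to 20.2 ± 2.75 CPM (log2 fold-change -1.58 ± 0.20, adjusted p = 0.00027). The target gene ID3 fell by 1.91. The inhibitory SMAD6 fell by 2.08, to 0.224 ± 0.178 CPM, near the floor. Also looked up after the fact, the type II receptor TGFBR2 (-1.19) and BMP4 (-0.95) fell and SMAD7 (0.77) rose. In the same libraries the summed level of the basal epithelial markers was 1232 to 1390 CPM, below the control range, with 3 of 10 lower and 2 higher. The fibroblast markers summed to 94.3 to 174 CPM, with 2 of 8 lower. The part of the basal and fibroblast markers in these results was not tested. All list and marker counts after 30 µg/cm2 should be read against the 8.07% of all genes called.

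After 1 µg/cm2 for 24 h, 0 of 10 genes were called by edgeR, 0 had an unadjusted p-value under 0.05, and DESeq2 called 0, while 0.0625% of all genes were called. CDH1 had 82.0, 50.3 and 82.2 CPM, against 86.9, 74.3 and 81.6 CPM in the controls, so that experiment 2 alone was clearly lower (log2 fold-change -0.18, 95% confidence interval -0.59 to 0.23). FN1 was below its control in 3 of 3 experiments, with 1998, 585 and 1744 CPM (log2 fold-change -0.29, interval -1.09 to 0.50). SNAI2 was likewise lower in 3 of 3, with 17.8, 11.7 and 19.0 CPM (-0.27, interval -0.96 to 0.42), and ESRP1 higher in 3 of 3, with 40.2, 23.6 and 40.4 CPM (0.24, interval -0.18 to 0.65). For each of these genes the groups overlapped. The remaining genes had log2 fold-changes between -0.21 for VIM and 0.14 for SNAI1, and within the experiments VIM (-0.36 to -0.045) and ZEB1 (-0.27 to -0.064) were also below their controls in 3 of 3. No gene of the 5 lists was called by edgeR, and DESeq2 called 2. By edgeR 2 listed genes were called with the block, 11 without 24-h experiment 2 and 1 without the control library of experiment 2.

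Between the exposures at 24 h, 30 against 1 µg/cm2, edgeR called 0 of 10 genes and DESeq2 0, with 3 at an unadjusted p-value under 0.05, against 7.84% of all genes called. SNAI1 had 2.24, 1.29 and 2.0 CPM at the low concentration and, as given above, 2.53 to 3.59 CPM at the high one, so that its groups did not overlap (log2 fold-change 0.73 ± 0.27, adjusted p = 0.11). With the replicate block SNAI1 was called (log2 fold-change 0.74, adjusted p = 0.016), the only one of the 10 genes, against 15.6% of all genes. SNAI2 (log2 fold-change 0.61, adjusted p = 0.32) passed without 24-h experiment 2, at a log2 fold-change of 0.77 and an adjusted p of 0.00023. CDH1 (-0.52, adjusted p = 0.14) and ZEB1 (0.49, adjusted p = 0.15) did not pass. CDH1 passed when the 1 µg/cm2 library of experiment 2 was left out (-0.73), and SNAI2 (0.97) and ZEB1 (0.69) passed when the 30 µg/cm2 library of experiment 2 was left out. On the lists, OVOL1 (1.32) and CLDN1 (0.90) of the epithelial genes were higher and 6 lower at the high concentration, among them ELF3 (log2 fold-change -2.66) and TJP3 (-2.22), and 4 mesenchymal genes were higher and 3 lower. CLDN1, a tight junction claudin, was looked up after its value was seen. Among the transcription factors LEF1 was higher and TCF4 lower, among the splicing regulators RBM47 and MBNL2 were lower, and 4 genes of the TGF-beta pathway were lower and none higher. The 23 listed genes called became 5 in the fit of the compared groups alone, 15 without the 30 µg/cm2 library of experiment 1 and 36 without 24-h experiment 2.

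Daily exposure to 1 µg/cm2 was compared with the control of the repeated protocol. By the main test 0 of 10 genes were called, against 0.227% of all genes. Of the 10 genes, 2 had an unadjusted p-value under 0.05, and DESeq2 called 0. With the replicate block, 3 of 10 genes fell and none rose, against 4.39% of all genes called.

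FN1 had 685, 657 and 628 CPM in the 7-d controls and 352, 355 and 425 CPM after daily exposure. These values did not overlap, and FN1 was 1.74-fold lower (log2 fold-change -0.80 ± 0.41, adjusted p = 0.47), with an adjusted p of 0.0055 in the blocked fit. The SE from the fit of all 15 libraries also carries the spread between the 24-h experiments, and the SD of FN1 was 744 CPM in the 24-h controls and 28.7 CPM in the 7-d controls. SNAI2 went from 16.8, 15.3 and 17.4 CPM to 11.6, 8.64 and 11.4 CPM, again without overlap (log2 fold-change -0.65 ± 0.36, adjusted p = 0.51, and 0.029 with the block). CDH1 was at 205, 198 and 220 CPM in the controls and at 148, 150 and 114 CPM after exposure, 1.51-fold lower (log2 fold-change -0.60 ± 0.21, adjusted p = 0.26). With the block the log2 fold-change of CDH1 was -0.61 and the adjusted p 0.012. The genes that fell in the blocked fit thus hold an epithelial adhesion molecule, a mesenchymal matrix protein and a repressor of CDH1.

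VIM had 246, 225 and 231 CPM in the controls and 216, 190 and 147 CPM after daily exposure, with no overlap (log2 fold-change -0.35 ± 0.26, adjusted p = 0.66, and 0.0504 with the block). TWIST1 was lower in 3 of 3 experiments, from 25.7, 19.3 and 22.2 CPM to 19.9, 16.3 and 14.4 CPM, and its groups overlapped (log2 fold-change -0.41 ± 0.17, adjusted p = 0.37, and 0.022 with the block, under the fold threshold). All 4 genes with separate groups were lower after exposure, while 42.9% of all genes had groups that did not overlap. EPCAM, at 99.2, 90.4 and 72.8 CPM, and ESRP1, at 126, 122 and 107 CPM, had log2 fold-changes of 0.11 (95% confidence interval -0.18 to 0.40) and 0.12 (interval -0.29 to 0.53). CDH2 was at 1.88, 1.42 and 1.37 CPM (log2 fold-change 0.07, interval -0.50 to 0.65), SNAI1 at 1.23, 1.50 and 0.967 CPM (-0.14, interval -0.69 to 0.40) and ZEB1 at 34.9, 33.8 and 41.2 CPM (-0.06, interval -0.46 to 0.33). EPCAM, ESRP1, CDH2 and SNAI1 each lay on both sides of their controls over the 3 experiments, as did ZEB1.

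The ratio of CDH1 to EPCAM per length was 0.962 to 1.13 in the 7-d controls and 0.610 to 0.676 after daily exposure, without overlap, which is likewise a description. No gene of the 5 lists passed the main test, while 2 passed with DESeq2, 2 with no filter, 7 with the block and 11 in the fit of the compared groups alone. In the blocked fit these were 1 of 33 epithelial, 4 of 31 mesenchymal and 2 of 24 TGF-beta genes, against 4.39% of all genes. No share of all genes is given for the other alternative fits. With the block the desmosomal DSP fell (log2 fold-change -0.98 ± 0.13, adjusted p = 0.0025), as did the mesenchymal genes TNC (-1.11), FBN1 (-0.73), PDGFRB (-0.63) and CD44 (-0.62) and, in the TGF-beta pathway, TGFBR3 (-0.83) and LTBP2 (-0.69). These genes were looked up after their values were seen, and none on the lists rose. The basal epithelial markers summed to 1581 to 1842 CPM after daily exposure and 2354 to 2838 CPM in the controls, with 2 of 10 lower by the main test. The fibroblast markers summed to 83.8 to 103 CPM, with 0 of 8 called. Their part in these results was not tested.

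**Figure D4:**
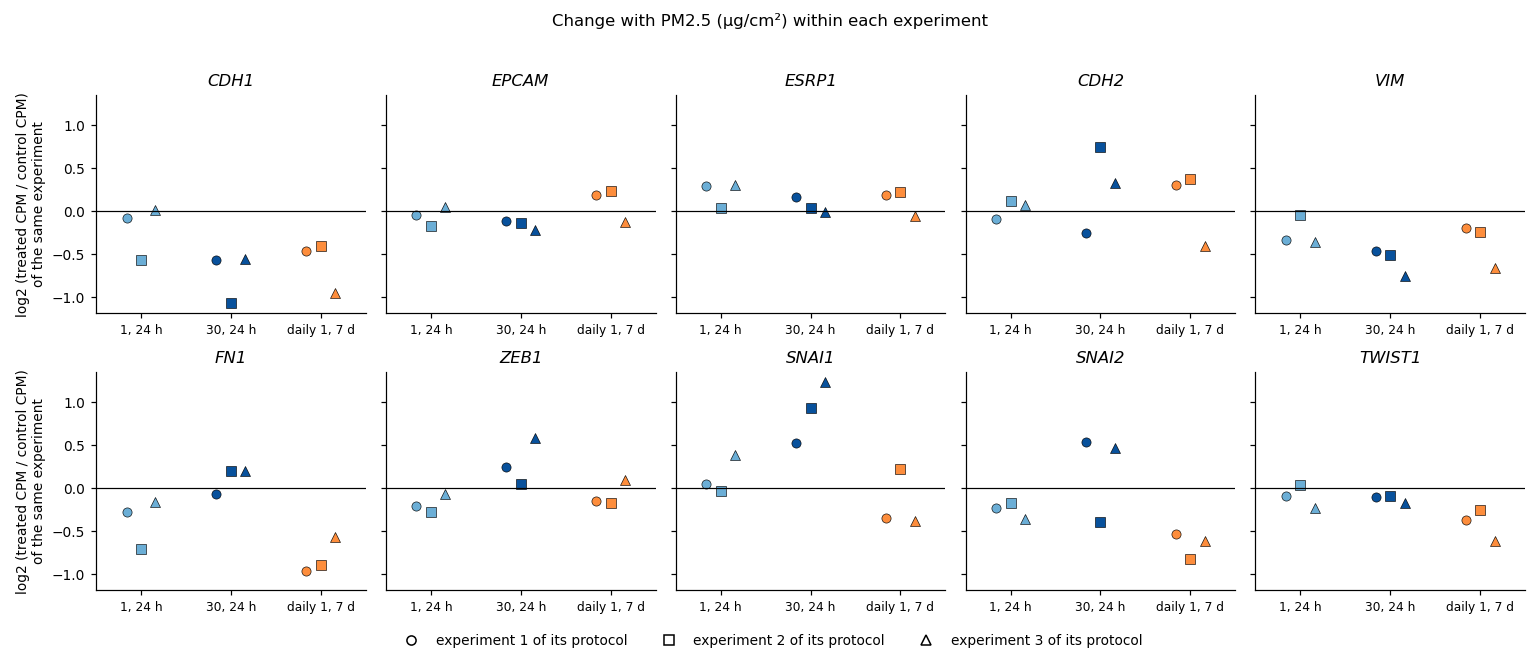
Log2 ratio of exposed to control CPM within the same experiment (y axis) for each of the 10 genes after 1 and 30 µg/cm2 for 24 h and after daily 1 µg/cm2 (x axis), with the experiment as the marker shape. CDH1 lies below 0 in 3 of 3 experiments after 30 µg/cm2 and after daily exposure, SNAI1 lies above 0 in 3 of 3 after 30 µg/cm2, and FN1 and SNAI2 lie below 0 in 3 of 3 after daily exposure.

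Whether repeated exposure acted differently from a single one was tested on the difference of the responses. Against the response to 1 µg/cm2 at 24 h, edgeR called 0 of 10 genes and DESeq2 0, with 0 at an unadjusted p-value under 0.05, and 0.0% of all genes were called. Of the listed genes edgeR also called 0, but 19 without 24-h experiment 2 and 2 with the block. The largest differences of log2 responses, daily minus single, were -0.51 for FN1 (95% confidence interval -1.63 to 0.62) and -0.42 for CDH1 (interval -0.99 to 0.15). Against the response to 30 µg/cm2, edgeR called 0 of 10 and DESeq2 0, with 1 at an unadjusted p-value under 0.05, and 1.82% of all genes were called. Dose and duration differ together in this second test.

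With the replicate block, 3 of 10 genes had a lower response after daily exposure than after 30 µg/cm2, against 14.6% of all genes called. SNAI1 had a log2 response of 0.87 after 30 µg/cm2 and of -0.14 after daily exposure, a difference of -1.01 ± 0.39 (adjusted p = 0.22) and of -1.04 with the block (adjusted p = 0.031). FN1 differed by -0.89 ± 0.58, and with the block by -0.92 (adjusted p = 0.0061), its response being 0.09 after 30 µg/cm2 and -0.80 after daily exposure. SNAI2 differed by -0.99 ± 0.50, and with the block by -0.91 (adjusted p = 0.020), from responses of 0.34 and -0.65. The CDH1 responses of -0.70 and -0.60 differed by 0.10, with an interval of -0.47 to 0.67. On the lists, 5 genes had responses that differed. ACTA2 had a log2 response of 1.23 after 30 µg/cm2 and of -0.11 after daily exposure, and TNC had 1.09 and -1.11. The matrix protein SPARC, looked up after its value was seen, had -1.22 and -0.29, and SRSF1 had -0.34 and 0.50. This count of 5 was not stable. It was 22 with the block, 35 without 24-h experiment 2, 12 with DESeq2 and 8 with no filter or in the fit of the compared groups alone. It was 19 without the 30 µg/cm2 library of experiment 2, 8 without the 24-h control of experiment 2, and 1 to 3 when any of the other 10 libraries was left out.

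Within each library, ratios of these genes do not depend on how libraries were scaled. The ratio of CDH1 to CDH2 per length was 10.8 ± 2.96 in the 24-h controls, 8.88 ± 0.0355 after 1 µg/cm2 and 5.41 ± 1.61 after 30 µg/cm2. It was 117 ± 25.3 in the 7-d controls and 71.5 ± 11.7 after daily exposure. The range after 30 µg/cm2, 4.02 to 7.17, lay under that of the controls, 8.90 to 14.2, and the range after daily exposure, 63.2 to 84.8, under that of its controls, 97.0 to 145. In the ratio of VIM to CDH1, by contrast, the 24-h controls (5.59 to 10.8) and the libraries after 30 µg/cm2 (5.99 to 16.0) overlapped, and the 7-d controls were at 1.26 to 1.44. The ratio of FN1 to CDH1 was 4.57 to 9.88 in the 24-h controls and 11.1 to 14.4 after 30 µg/cm2, without overlap. These ratios are descriptions, and the difference between the protocols exceeded that between exposed and control cells in each of them except CDH1 to EPCAM.

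**Figure D5:**
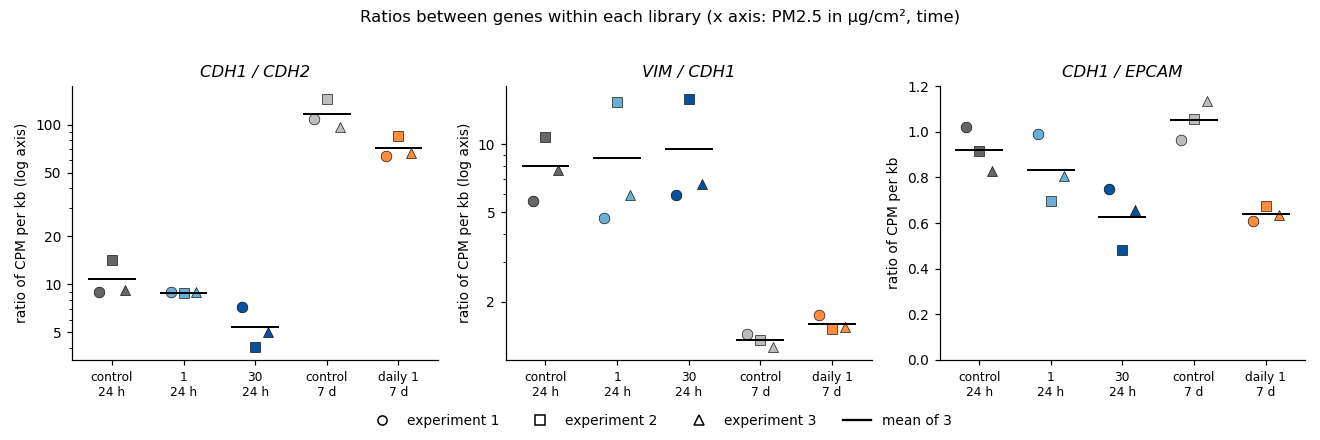
Ratios of CDH1 to CDH2, VIM to CDH1 (both on log axes) and CDH1 to EPCAM (linear axis from 0), as CPM per kb, in the 15 libraries by condition, with the experiment as the marker shape and the mean of 3 as a bar. CDH1 to CDH2 is 8.90 to 14.2 in the 24-h controls and 97.0 to 145 in the 7-d controls, while CDH1 to EPCAM is lower in the exposed cells of both protocols after 30 µg/cm2 and after daily exposure.

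Over the 15 libraries, the genes whose log2 CPM followed each gene of the set most closely were found by Pearson's r. The libraries fall into the 2 protocols, which these values share, so the correlations are a description only. CDH1 was followed most closely by ANK3 (r = 0.973) and ZNF385B (r = 0.973), EPCAM by SVIP (r = 0.987) and STK3 (r = 0.984), and ESRP1 by CDS1 (r = 0.987) and ZNF711 (r = 0.985). For CDH2 the nearest were NRP1 (r = 0.979) and EFTUD2 (r = 0.977), for VIM TPM2 (r = 0.979) and CYB5R3 (r = 0.976), and for FN1 PXDN (r = 0.989) and RAB3B (r = 0.985). The transcription factors had looser neighbours, SUCO (r = 0.970) and KLHL8 (r = 0.968) for ZEB1, ZNF469 (r = 0.950) and ECE1 (r = 0.949) for SNAI1, TPP2 (r = 0.918) and CPEB2 (r = 0.913) for SNAI2, and DUSP9 (r = 0.942) and ZNF277 (r = 0.932) for TWIST1.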

How the data were processed

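RNA-Seq libraries of 15 BEAS-2B cultures were analysed. The authors aligned single-end 50-base reads with STAR to GRCh38 and deposited raw counts per gene from featureCounts, without normalization. The submitters' notes list hg19, but the deposited coordinates matched GRCh38. The authors also deposited each gene's exon length, an unscaled number of bases, which was used here for levels per kilobase. Genes and lists were chosen with earlier results of these data known. Counts were filtered with filterByExpr, scaled by TMM and fitted in R 4.3.3 with edgeR 4.0.16 (quasi-likelihood, earlier mode, 1 mean for each of 5 conditions, all 15 libraries). A call required a p-value under 0.05 after Benjamini-Hochberg adjustment over all tested genes and a log2 fold-change of 0.6 or more in either direction. The SE was derived from the log2 fold-change and its F statistic. Symbols came from GENCODE release 44.

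All 10 genes were named in every comparison. From each list, up to 3 called genes with the largest change and libraries that did not overlap between groups were named, and for each of the 10 genes the 2 others with the highest r of log2 CPM (prior count 2). Another gene was named only where this is said. Some listed genes enter the counts but are not reported by name here. Deviations from group means correlated between libraries of the same experiment number (0.201 to 0.721 over 9 pairs at 24 h, 0.121 to 0.181 over 3 pairs at 7 d). Between different numbers the range was -0.683 to 0.453 over 18 pairs at 24 h, which overlaps, and -0.127 to -0.0341 over 6 pairs at 7 d. The series description gives the number as the experimental batch, so the number was used as a replicate block within each protocol. Alternatives were RLE scaling, no filter, the block, the compared groups alone, DESeq2 1.42.0, leaving out 24-h experiment 2, and each library left out in turn.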

Additional observations from a re-analysis of the deposited data

Results flagged for a closer look

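The responses to daily 1 µg/cm2 and to 30 µg/cm2 for 24 h differed for 3 of the 10 genes by an interaction term in the fit with the replicate block. In that fit 14.6% of all genes were called. The difference of log2 responses, daily minus 24 h, was -0.92 for FN1, -1.04 for SNAI1 and -0.91 for SNAI2. None passed in the fit without the block, and without 24-h experiment 2 all 3 passed, at -0.85, -0.97 and -1.14. No share of all genes is given for the fit without experiment 2, in which 35 listed genes were called, more than in the main fit. SNAI2 also passed without experiment 2 of the 30 µg/cm2 libraries alone. Dose, duration, plating density and washing differ together between these responses and cannot be told apart.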

How the results depend on the processing

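The count of 7 called genes between the controls was 7 under RLE scaling, no filter, DESeq2 and the controls alone, and 5 to 7 with 1 library left out. After 30 µg/cm2, 1 gene was called, 2 with the replicate block, with DESeq2 and without 24-h experiment 2, 0 in the fit of the compared groups alone, and 0 to 1 with 1 library left out. After daily exposure, 0 were called, 3 with the block and 2 in the fit of the compared groups alone. For 30 against 1 µg/cm2, 0 were called, 1 with the block, 1 without 24-h experiment 2 and 0 to 2 with 1 library left out. For the daily response minus that to 30 µg/cm2, 0 were called, 3 with the block, 3 without 24-h experiment 2 and 0 to 1 with 1 library left out. Shares of all genes called are given above for the main fit and for these fits with the block. None is given for RLE scaling, no filter, DESeq2, the compared groups alone, the fits without 24-h experiment 2 or those with 1 library left out. Counts from those fits, of the 10 genes or of listed genes, therefore cannot be read against a share. The block changed no other call of the 10 genes. The comparison between the controls of the protocols was not fitted with it, because the block was set within each protocol. The cause of these changes was not tested. Of 940 log2 values of the 10 genes under the alternatives, 854 kept direction and call, 16 lost a call, 23 gained one and 47 turned direction, none of them of a called result. Without 24-h experiment 2, EPCAM (0.016) and CDH2 (-0.00066) turned for 1 µg/cm2, TWIST1 (0.0046) for 30 against 1 µg/cm2, and CDH1 (-0.022) and CDH2 (0.045) for the daily response minus that to 30 µg/cm2. The other turns came from leaving out 1 library, with these ranges. For 30 µg/cm2 against control, FN1 -0.21 to 0.37 and ESRP1 -0.092 to 0.23. For 1 µg/cm2 against control, CDH2 -0.19 to 0.22, VIM -0.54 to 0.0022, TWIST1 -0.24 to 0.017, EPCAM -0.19 to 0.067, SNAI1 -0.00038 to 0.38, CDH1 -0.29 to 0.023 and FN1 -0.58 to 0.086. For daily 1 µg/cm2, CDH2 -0.11 to 0.25 and SNAI1 -0.31 to 0.0027. For 30 against 1 µg/cm2, FN1 -0.0020 to 0.67, TWIST1 -0.14 to 0.12 and EPCAM -0.24 to 0.019. For the daily minus the single response to 1 µg/cm2, CDH2 -0.14 to 0.27, VIM -0.34 to 0.21, ZEB1 -0.038 to 0.22 and ESRP1 -0.32 to 0.027. For the daily response minus that to 30 µg/cm2, ESRP1 -0.10 to 0.22, CDH2 -0.34 to 0.075 and CDH1 -0.086 to 0.26. Precision is limited by the 3 experiments per condition, none of the 10 genes had fewer than 26 counts in a library, and plating density and culture time cannot be told apart.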
